A study of Mus musculus with 4 samples.

Results

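The 6 genes described here, Hspa1a, Hspa1b, Hspb1, Hspe1, Mt1 and Mt2, are the heat shock and metallothionein genes picked by name from a deposited table of 2979 mouse genes. RNA sequencing was done on fibroblasts, the connective tissue cells that make matrix, newly taken from the lungs of BALB/c wild-type mice, 4 weeks old. The chemokine group (n = 2 libraries) received the human chemokines as recombinant proteins for 3 hours, at 8 nM of CXCL1, 2 nM of CXCL2 and 20 nM of CXCL8, and the other group (n = 2 libraries) is labelled as control. All are secreted attractants of neutrophils and act mainly through the receptor CXCR2. The labels do not say whether libraries of a group came from separate cultures or animals, so p-values measure only the spread between these libraries, which may be technical. With bulk RNA, fewer cells of a type and less RNA per cell cannot be told apart.

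Heat shock proteins are chaperones that keep other proteins folded. When unfolded protein builds up, the transcription factor HSF1 binds inverted repeats of a short unit, the heat shock element, in front of their genes and switches them on. Metallothioneins are small cysteine-rich proteins that bind zinc and copper. Their genes are switched on by free zinc through the factor MTF1, which binds metal response elements, and also by glucocorticoids and inflammatory cytokines. Cells taken out of a tissue by enzymatic digestion commonly express both gene families at a raised level.

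Values are RPKM, reads scaled to exon length and library size, on implied library totals of 28603764 and 33854493 reads for chemokine 1 and 2, and 31859688 and 36863654 reads for control 1 and 2. The table holds a selection of genes, by a rule that the labels do not state. In 100% of its 2979 genes the values of the groups do not overlap, and in 42.4% both chemokine libraries were the higher ones. The test was limma's moderated test on log2(RPKM + 1), with Benjamini-Hochberg adjustment over 2956 genes that averaged 1 RPKM or more. It called 100% of them at an adjusted p under 0.05, with 42.8% higher and 57.2% lower, so a call adds nothing to a gene's place in the table. Median-ratio scaling between libraries called 42.8% higher and 27.3% lower (70.1% in all), so that 61.0% of its calls were higher. Quantile normalization called 28.7% higher and 31.7% lower (60.4% in all), and 47.6% of its calls were higher. No batch is given in the labels. Of 14 fibroblast markers 6 are in the table, Col1a1, Col1a2 and Dcn among them, of which 5 rose and 1 fell, with a summed level of 1048 to 1075 RPKM in chemokine libraries and 943 to 949 RPKM in control libraries.

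All 6 genes were higher in both chemokine libraries than in both control libraries, as 42.4% of the table was. The fold of group means ran over the 6 genes between 1.24 for Hspe1 and 1.54 for Mt2. All 6 passed limma's test, against 42.8% of tested genes called higher, with a median log2 fold change of 0.41, compared with 0.31 over all genes called higher and -0.23 over all tested genes. The fold changes of Hspb1 and Hspe1 turned just below 0, without passing, once the trend of fold change with gene length and GC content was removed.

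**Figure D1:**
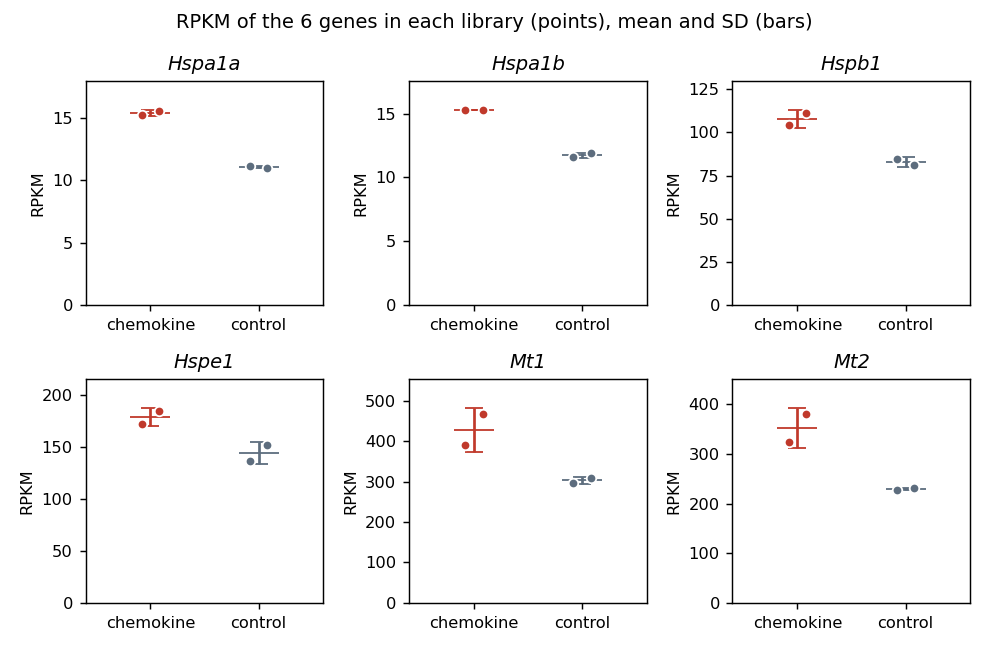
RPKM (y axis, from 0, a separate scale for each gene) in the chemokine and control groups, where points are single libraries, the long horizontal bar is the mean and the capped bar the SD (n = 2 per group). In each of the 6 genes both chemokine points lie above both control points, and the chemokine points of Mt1 and Mt2 lie farther apart than their control points.

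Hspa1a and Hspa1b encode the stress-inducible form of HSP70, the chaperone that binds exposed hydrophobic stretches of unfolded proteins, and are neighbouring single-exon copies on mouse chromosome 17. In GRCm38, Hspa1a (ENSMUSG00000091971) spans bases 34969190 to 34972156 and Hspa1b (ENSMUSG00000090877) bases 34956436 to 34959238, both on the minus strand with 9951 bases between them. Of the words of 31 bases in the Hspa1b transcript, 67.6% also occur in the Hspa1a transcript. Reads from those stretches could be counted for either copy, and how the authors' counting handled them is not stated in the labels. The promoters are shown because the copies are nearly identical there too, with 296 of 300 bases equal between the copies. The windows come from RefSeq on GRCm38.p6 and run from 250 bases before to 50 bases after the transcript start, here on the minus strand at chr17:34972107-34972406 for Hspa1a and chr17:34959189-34959488 for Hspa1b. Capitals in Hspa1a mark a paired heat shock unit, GAANNTTC, and capitals in Hspa1b mark the bases that differ from Hspa1a.
Hspa1a: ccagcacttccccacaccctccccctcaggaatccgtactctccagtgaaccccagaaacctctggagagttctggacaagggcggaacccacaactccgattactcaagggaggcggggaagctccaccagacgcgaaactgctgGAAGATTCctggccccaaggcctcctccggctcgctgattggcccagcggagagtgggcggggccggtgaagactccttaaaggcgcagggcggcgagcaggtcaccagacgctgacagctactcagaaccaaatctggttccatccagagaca
Hspa1b: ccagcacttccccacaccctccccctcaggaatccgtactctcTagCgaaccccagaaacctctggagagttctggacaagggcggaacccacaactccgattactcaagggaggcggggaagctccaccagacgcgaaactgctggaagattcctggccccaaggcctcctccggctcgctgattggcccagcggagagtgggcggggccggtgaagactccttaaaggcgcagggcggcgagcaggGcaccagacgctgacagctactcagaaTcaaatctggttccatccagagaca

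The paired unit lay at 104 to 97 bases before the start in both copies, and none of the differing bases fell in it. Either phase of the pair, GAANNTTC or TTCNNGAA, each its own reverse complement, occurs in 15.1% of the 32851 RefSeq promoters of this length and in 10.7% of the 2779 that belong to listed genes.

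Hspa1a had 15.2 and 15.6 RPKM in chemokine libraries, against 11.1 and 11.0 RPKM in control libraries. These values rest on 1294 and 1563 reads in chemokine libraries and 1053 and 1207 reads in control libraries. Its 4 values formed tight pairs, with a gap between the groups far wider than the gap within either. Hspa1a rose by 0.44 ± 0.05 on the log2 scale (SE; limma adjusted p = 0.000209), and its fold of 1.39 was rank 117 of 2979 in the table.

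Hspa1b had 15.3 RPKM in each chemokine library, on 1223 and 1448 reads, against 11.6 and 11.9 RPKM in control libraries, on 1035 and 1228 reads. The chemokine values were nearly equal, and the control values lay close together below them. Hspa1b rose by 0.35 ± 0.05 on the log2 scale (SE; limma adjusted p = 0.000339). The ratio of Hspa1a to Hspa1b was 0.9996 and 1.02 in chemokine libraries, against 0.961 and 0.929 in control libraries. Because reads of the stretches they share could be counted for either copy, this ratio of counted values does not give the relative level of the copies. With 2 libraries a group an exact permutation test of that ratio cannot give a p below 0.333, so no test is given.

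Since reads can pass between the copies, their summed level is given as well. It is free of that question only if each shared read was given to a single copy, which the labels do not state. The sum was 30.5 and 30.8 RPKM in chemokine libraries, against 22.7 and 22.9 RPKM in control libraries. It was 1.34-fold higher in chemokine cells, or by 0.41 ± 0.05 on the log2 scale (SE; limma adjusted p = 0.000215). Each pair of sums was tight. That the sums of the groups did not overlap follows from the values of the copies, since the groups do not overlap in 100% of the table.

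Gm20481, an annotated gene on the plus strand of chromosome 17 from base 34969912 to 34972136, lies across Hspa1a, and all 564 of its exon bases are also exon bases of Hspa1a. Gm20481 had 11.7 and 12.5 RPKM in chemokine libraries, against 7.12 and 7.89 RPKM in control libraries, on 128 to 239 reads. Without the strand setting of the counting, its reads cannot be told apart from those of Hspa1a. The reads counted for Gm20481 came to 14.6% and 15.3% of those of Hspa1a in chemokine libraries, against 12.2% and 13.6% in control libraries. Its log2 fold change of 0.63 ± 0.06 (SE; limma adjusted p = 0.000182) is larger than that of Hspa1a, and it fell short of the threshold after removal of the length and GC trend, at 0.14 ± 0.06 (limma adjusted p = 0.131).

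Hspb1 encodes a small heat shock protein, called HSP25 in mice, that holds unfolded proteins in solution and binds actin filaments. It (ENSMUSG00000004951) lies on the plus strand of chromosome 5, bases 135887919 to 135889563. Hspe1 encodes HSP10, the lid of the mitochondrial chaperonin, and sits back to back with Hspd1, which encodes the chaperonin barrel. Hspe1 (ENSMUSG00000073676) occupies bases 55088132 to 55091307 of chromosome 1, plus strand, and shares 112 of its 1474 exon bases with Hspd1 on the other strand, which was not analysed here. Their promoters are shown by the stretch of 70 bases, from 130 to 61 before the RefSeq start, that holds their paired heat shock units in capitals, on the plus strand of GRCm38.p6 at chr5:135887789-135887858 for Hspb1 and chr1:55088018-55088087 for Hspe1.
Hspb1: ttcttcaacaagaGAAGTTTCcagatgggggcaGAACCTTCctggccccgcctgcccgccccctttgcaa
Hspe1: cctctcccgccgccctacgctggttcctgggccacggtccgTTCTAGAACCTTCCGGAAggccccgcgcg

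The Hspb1 promoter held 2 separate pairs, of the GAANNTTC form. In Hspe1 3 pairs overlapped in one run of 18 bases, which makes 2 overlapping matches to the triple unit, GAANNTTC followed at once by NNGAA, when both strands are searched. The triple unit occurs in 0.603% of the RefSeq promoters and in 0.432% of those of listed genes. In the other heat shock promoters of the 6 genes it was not found in these windows.

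**Figure D2:**
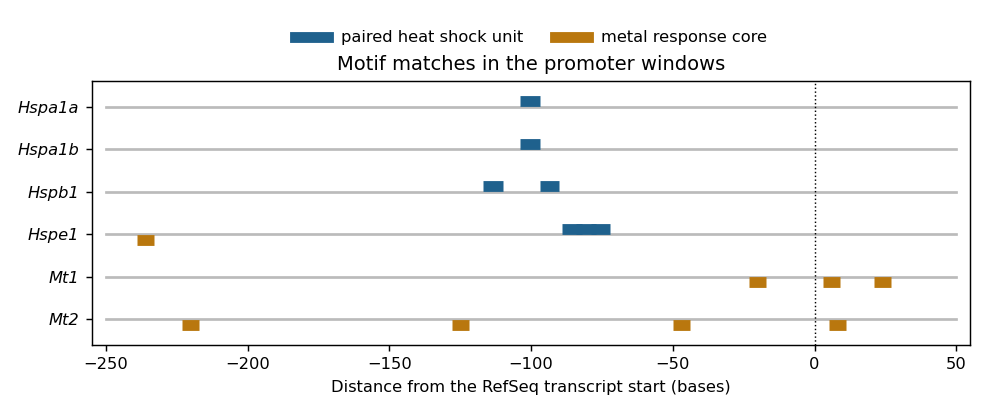
Matches to paired heat shock units (GAANNTTC or TTCNNGAA, blue, above the line) and metal response cores (TGCACNC or TGCGCNC on either strand, orange, below the line) in each gene's window. The x axis is the distance in bases from the RefSeq transcript start. Blue marks lie between 117 and 72 bases before the start in the 4 heat shock genes, and orange marks lie in Mt1 and Mt2 and once in Hspe1.

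Hspb1 had 104.1 and 111 RPKM in chemokine libraries, against 84.9 and 81.0 RPKM in control libraries. The lower chemokine library stood 1.23-fold above the higher control library. Hspb1 rose by 0.37 ± 0.05 on the log2 scale (SE; limma adjusted p = 0.000358), but after removal of the length and GC trend the value was -0.04 ± 0.05 (limma adjusted p = 0.623).

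Hspe1 had 172 and 185 RPKM in chemokine libraries, on 7267 and 9226 reads, against 136 and 151 RPKM in control libraries, on 6410 and 8227 reads. Of the 6 genes it had the narrowest gap, with the lower chemokine library 1.14-fold above the higher control library. Hspe1 rose by 0.31 ± 0.06 on the log2 scale (SE; limma adjusted p = 0.00137), the smallest of the 6. Its fold was below the middle of the genes with a fold above 1, of which 44.8% had a lower one. It fell short of the threshold with quantile normalization, at 0.07 ± 0.06 (limma adjusted p = 0.373), and after removal of the length and GC trend, at -0.01 ± 0.06 (limma adjusted p = 0.949).

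Mt1 and Mt2 encode the metallothioneins that most mouse tissues make, and are neighbours on the plus strand of chromosome 8. In GRCm38, Mt2 (ENSMUSG00000031762) spans bases 94172664 to 94173568 and Mt1 (ENSMUSG00000031765) bases 94179082 to 94180327, with 5513 bases between them. Their longest transcripts have 0 words of 31 bases in common, so reads of that length or longer cannot match both of these exactly. Matches with mismatches and other transcripts were not compared. On the other strand the gene Gm45774, not analysed here, covers 432 of the 588 exon bases of Mt2, and without the strand setting the reads of the pair cannot be told apart. The RefSeq windows of GRCm38.p6, on the plus strand at chr8:94178839-94179138 for Mt1 and chr8:94172368-94172667 for Mt2, are shown because each holds several metal response cores. Capitals mark the cores TGCACNC and TGCGCNC, read on either strand.
Mt1: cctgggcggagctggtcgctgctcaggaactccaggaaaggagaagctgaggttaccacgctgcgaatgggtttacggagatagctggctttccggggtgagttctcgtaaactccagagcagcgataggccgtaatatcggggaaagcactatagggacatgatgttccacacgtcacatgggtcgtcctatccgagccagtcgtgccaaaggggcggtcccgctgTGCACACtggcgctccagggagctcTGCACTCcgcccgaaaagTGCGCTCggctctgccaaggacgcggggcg
Mt2: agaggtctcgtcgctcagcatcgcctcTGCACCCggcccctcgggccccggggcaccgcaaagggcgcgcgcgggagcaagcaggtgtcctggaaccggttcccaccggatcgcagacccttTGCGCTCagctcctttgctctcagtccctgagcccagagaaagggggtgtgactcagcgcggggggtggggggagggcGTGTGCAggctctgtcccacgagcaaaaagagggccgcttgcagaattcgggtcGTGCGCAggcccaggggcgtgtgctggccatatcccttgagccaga

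The Mt1 window held 3 cores, all within positions -23 to 27 from the RefSeq start, and that of Mt2 held 4, spread over positions -223 to 11. Bases outside the windows and other transcript starts were not searched. The counts and positions hold for these windows only, and do not compare the whole promoters of Mt1 and Mt2. One or more cores occur in 25.7% of RefSeq promoters, at least 3 in 1.97% and at least 4 in 0.517%. Among promoters of the listed genes the shares were 36.2%, 3.28% and 1.01%. No paired heat shock unit was found in the windows of Mt1 and Mt2, and of the 4 heat shock genes Hspe1 had a metal response core.

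Mt1 had 389.5 and 466 RPKM in chemokine libraries, against 297 and 309 RPKM in control libraries. Mt2 had 324 and 381 RPKM in chemokine libraries, against 228 and 231 RPKM in control libraries. In both genes chemokine 2 was clearly above chemokine 1, whereas the control libraries lay close together. The groups did not overlap, as in 100% of the table. The value in chemokine 2 was 1.197 times that in chemokine 1 for Mt1, with an exact 95% interval of 1.16 to 1.24 for counting error only, and 1.18 times for Mt2, with an interval of 1.14 to 1.22. Chemokine 2 was also the higher for Hspe1, at 1.07 times (interval 1.04 to 1.11), and for Hspb1, at 1.07 times (interval 1.02 to 1.12). The ratio was 1.02 for Hspa1a and 1.0003 for Hspa1b, with intervals that take in 1. The intervals of the metallothionein genes rest on the smallest whole read numbers that the RPKM allow, 6017 and 8527 for Mt1 and 5145 and 7167 for Mt2 in chemokine libraries.

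Mt2 rose by 0.61 ± 0.07 on the log2 scale (SE; limma adjusted p = 0.000232) and Mt1 by 0.49 ± 0.08 (SE; limma adjusted p = 0.000565). Mt2 was rank 22 of 2979 by fold and Mt1 rank 83. Their summed level was 713 and 847 RPKM in chemokine libraries, against 525.1 and 540.3 RPKM in control libraries, 1.46-fold higher in chemokine cells. The ratio of Mt1 to Mt2 was 1.204 and 1.23 in chemokine libraries, against 1.31 and 1.34 in control libraries. Mt1 stayed the more abundant transcript per length in every library, by a smaller margin in chemokine cells. An exact permutation test of the ratio cannot give a p below 0.333, and none was done. After removal of the length and GC trend, neither gene passed, with Mt2 at 0.19 ± 0.07 (limma adjusted p = 0.0799) and Mt1 at 0.14 ± 0.08 (limma adjusted p = 0.203). The RPKM of Mt1 imply an exon length of 540 bases, against 1246 in the annotation, and with the implied lengths the trend left 0.07 ± 0.08 for Mt1.

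Per length, the order of the 6 genes was Mt1, Mt2, Hspe1, Hspb1 and then the HSP70 copies in both groups. Mean levels in chemokine libraries were 428 ± 54.4 RPKM for Mt1, 352 ± 40.5 for Mt2, 179 ± 8.86 for Hspe1, 108 ± 5.08 for Hspb1, 15.3 ± 0.0037 for Hspa1b and 15.4 ± 0.221 for Hspa1a (SD, n = 2). In control libraries they were 303 ± 8.39 RPKM for Mt1, 229 ± 2.33 for Mt2, 144 ± 10.5 for Hspe1, 82.9 ± 2.70 for Hspb1, 11.7 ± 0.208 for Hspa1b and 11.1 ± 0.0736 for Hspa1a (SD, n = 2). Neighbours in this order did not overlap within a group, except Hspa1b and Hspa1a in chemokine libraries, whose order is uncertain in both groups for their shared reads. The metallothioneins and Hspe1 ranked near the top of the table by level, with Mt1 at rank 110 of 2979, Mt2 at 136 and Hspe1 at 224, while Hspa1a and Hspa1b stood near the middle, at ranks 1562 and 1539.

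When a fold above 1.2 was required in the test, Mt2 and Hspa1a remained, with adjusted p of 0.0116 and 0.0304 by limma's treat. This stricter call was made for 3.28% of tested genes in the higher direction and 10.5% in the lower (13.8% in all). Mt1 had an adjusted p of 0.0592, Hspb1 0.126, Hspa1b 0.167 and Hspe1 0.436 by the same test.

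In the whole table fold change moved with exon length, so each of the 6 genes has to be read beside genes of its own length. Hspb1, Hspe1, Mt1 and Mt2 belong to the shortest of 5 equal classes of tested genes, with 231 to 2084 exon bases, of which 97.1% were called higher with a median log2 fold change of 0.34. Hspa1a and Hspa1b belong to the next class, with 2088 to 4457 bases, where 81.4% were called higher with a median of 0.27. In the class of the longest genes 2.54% were called higher, with a median of -0.34. Mt2, Mt1 and Hspb1 thus stood above the median of their length class and Hspe1 below it, and the HSP70 copies stood above the median of theirs.

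**Figure D3:**
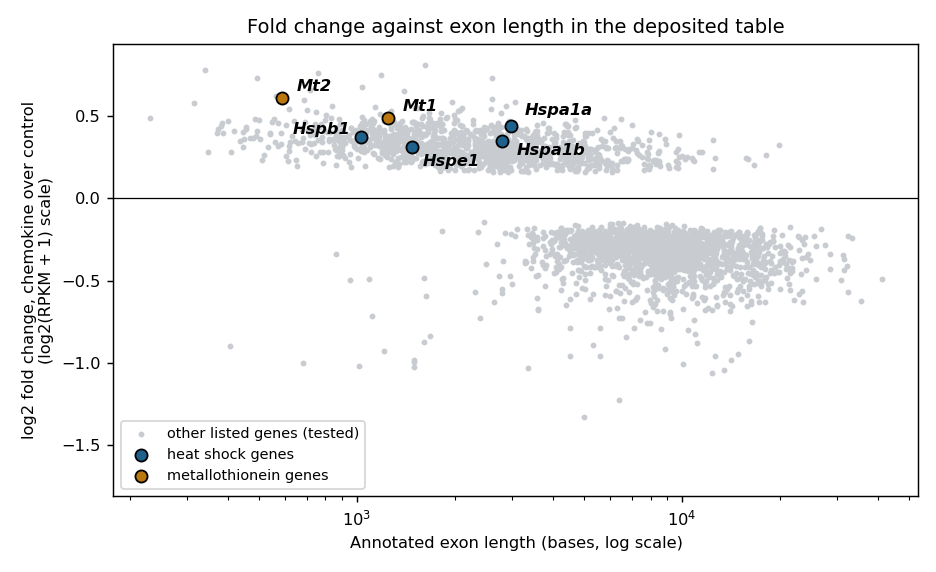
Each point is a tested gene, by its annotated exon length in bases (x axis, log scale) and its log2 fold change of chemokine over control on the log2(RPKM + 1) scale (y axis). Heat shock genes are blue and metallothionein genes orange. The 6 genes lie among short genes, most of which are above 0, and Mt2, at 0.61, and Hspa1a, at 0.44, lie in the upper part of the points around them.

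After a smooth trend of fold change on exon length and GC content had been subtracted over all genes, 15.3% of 2953 tested genes were called higher and 15.9% lower (31.3% in all). Of the 6 genes, Hspa1a at 0.30 ± 0.05 (limma adjusted p = 0.00211) and Hspa1b at 0.19 ± 0.05 (limma adjusted p = 0.019) passed on the log2 scale. The median of the 6 genes was then 0.17, against 0.00 over all tested genes. The subtraction sets the table's own median to 0, a shift of 0.23 on the log2 scale, so these values are relative to the listed genes and not to all genes of the genome. Exon length here joins the exons of all annotated transcripts of a gene, and it fits the RPKM of 1176 of the 2979 genes. For the others, values with the trend removed rest on a length that the RPKM do not bear out.

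**Figure D4:**
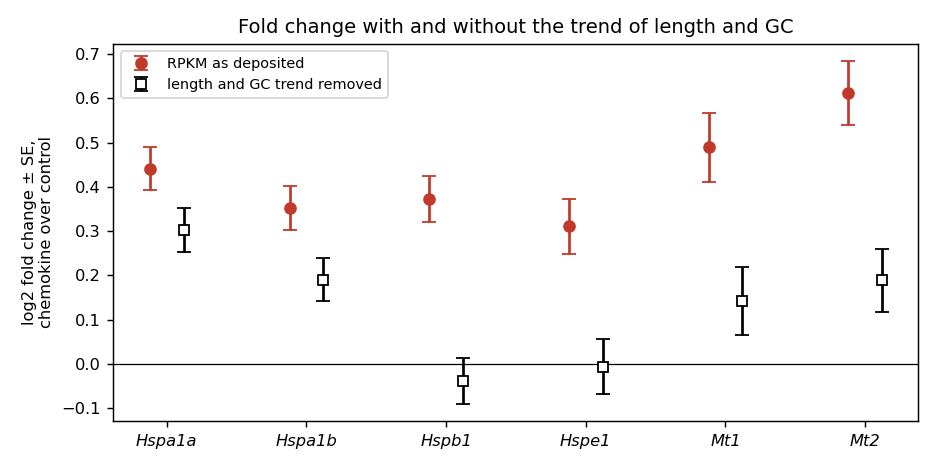
Log2 fold change of chemokine over control with its SE from limma (y axis) for the 6 genes (x axis), from RPKM as deposited (red circles) and after removal of the length and GC trend (open squares). All red circles lie between 0.31 and 0.61, while the squares lie between -0.04 and 0.30 and those of Hspb1 and Hspe1 are just below 0.

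The regulators and the remaining heat shock genes could be followed only in part. The factors Hsf1, Hsf2 and Mtf1 are not among the listed genes and were not analysed here. Of 35 heat shock proteins and HSF1 targets 6 were tested and all 6 rose, against 42.8% of all tested genes and 97.1% and 81.4% in the classes of their length, with a median log2 fold change of 0.33. Once the trend was removed, 2 of the 6 were called higher, against 15.3% of all tested genes, and the median was 0.0033. These 2 were the copies Hspa1a and Hspa1b, whose shared reads could be counted for either, so they are not independent calls. Besides the 4 described above, the tested genes were Hsbp1 and Cryab, both named after their values were seen. Hsbp1, a binding protein of the HSF1 trimer, rose with 0.30 ± 0.06. Cryab, the small heat shock protein alpha B-crystallin, rose with 0.25 ± 0.06 (SE). After removal of the length and GC trend Hsbp1 was at 0.01 ± 0.06 and Cryab at -0.08 ± 0.06, and neither passed. The HSP90 genes and Hspd1 were not analysed here.

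Co-chaperones and J-domain proteins, which steer HSP70 and HSP90, moved both ways. Of 36 genes 7 were tested, 5 rose and 2 fell, where 42.8% of all tested genes were called higher and 57.2% lower. With the trend removed 3 of the 7 were called higher and 0 lower, against 15.3% and 15.9% of all tested genes. Stub1, a ubiquitin ligase that binds HSP70, rose with a log2 fold change of 0.30 ± 0.05. Cdc37, which brings kinases to HSP90, rose with 0.24 ± 0.05, and Dnajb14, a J-domain protein of the endoplasmic reticulum, with 0.25 ± 0.05. Dnajc13, a J-domain protein of endosomes, fell, with -0.41 ± 0.05 (SE). Cdc37 and Dnajb14 have long annotated exon lengths, 8194 and 15741 bases. Both also passed with the trend removed, at 0.54 ± 0.04 and 0.60 ± 0.05, while Stub1 (0.11 ± 0.05) and Dnajc13 (-0.06 ± 0.05) did not. The removal raised the values of Cdc37 and Dnajb14, which depend on these lengths. Whether their RPKM imply the same lengths is not given here.

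Mitochondrial chaperones and proteases and cytosolic chaperonin and prefoldin genes were called higher, as 42.8% of all tested genes were. Of 22 mitochondrial genes 3 were tested and rose, Hspe1, the protease Clpp at 0.37 ± 0.05 and the prohibitin Phb2 at 0.28 ± 0.06 (SE). All 5 tested of 20 cytosolic chaperonin, prefoldin and tubulin cofactor genes rose, among them Pfdn4 (0.31 ± 0.07), Pfdn5 (0.28 ± 0.04), Tbcb (0.27 ± 0.05) and the chaperonin subunit Cct7 (0.23 ± 0.05). Once the trend was removed, 1 of the 3 and 1 of the 5 were called higher, Phb2 at 0.20 ± 0.06 and Cct7 at 0.48 ± 0.05. The removal raised the value of Cct7, which depends on its annotated exon length of 6778 bases. Clpp, Pfdn4, Pfdn5 and Tbcb were not called higher, the values of Pfdn5 and Tbcb being -0.06 ± 0.04 and -0.07 ± 0.05.

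Genes of zinc and copper handling moved both ways. Of 32 genes 13 were tested, 8 rose and 5 fell, where 42.8% of all tested genes were called higher and 57.2% lower. With the trend removed 3 were called higher and 3 lower, against 15.3% and 15.9% of all tested genes. The genes that fell were low, and 0 of the list were called lower where a mean of at least 10 RPKM was required. Beside Mt1 and Mt2, those that rose included the carriers that hand copper to other proteins, Ccs (0.45 ± 0.09), Atox1 (0.39 ± 0.05) and Cox17 (0.35 ± 0.06), and Sod1, the copper and zinc superoxide dismutase that Ccs loads (0.36 ± 0.04), all named after their values were seen. Atp7a, the pump that exports copper, had 1.32 and 0.92 RPKM in chemokine libraries, against 2.34 and 2.47 RPKM in control libraries, and fell, its log2 fold change being -0.69 ± 0.08 (SE; limma adjusted p = 0.000249). Slc39a10, a zinc importer, fell with -0.47 ± 0.06. The genes that fell had 5482 to 11116 exon bases and those that rose 541 to 5936. With the trend removed Cox17 (0.53 ± 0.06), Sod1 (0.34 ± 0.04), Atp7a (-0.38 ± 0.08) and Slc39a10 (-0.27 ± 0.06) passed in the same direction. Ccs (0.14 ± 0.09) did not, and Atox1 turned to -0.07 ± 0.05 without passing. The annotated exon lengths were 5773 bases for Cox17, 3970 for Sod1 and 541 for Atox1, and which of them passed depends on these lengths. Whether their RPKM imply the same lengths is not given here.

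All 18 tested of 37 genes of the NRF2 pathway and oxidative defence rose, against 42.8% of all tested genes, with a median log2 fold change of 0.29. Their exon lengths ran from 1051 to 10008 bases with a median of 2366.5, which lies in the class of length where 81.4% were called higher. The largest were Sod3, the extracellular superoxide dismutase (0.46 ± 0.07), Txn1, thioredoxin (0.42 ± 0.06), Gpx4, which reduces lipid peroxides (0.38 ± 0.05), and Blvrb, a biliverdin reductase (0.37 ± 0.06). With the trend removed 6 of the 18 passed as higher, against 15.3% of all tested genes, with a median of 0.07 for the list, Sod3 (0.38 ± 0.07) and Blvrb (0.17 ± 0.05) among them, while Txn1 (0.07 ± 0.06) and Gpx4 (0.07 ± 0.05) did not pass.

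Targets of glucocorticoids, which also induce metallothionein genes, moved both ways. Of 13 glucocorticoid targets 4 were tested, of which Ddit4 (0.45 ± 0.06) and Nfkbia (0.30 ± 0.05) rose and Klf9 (-0.44 ± 0.07) and Errfi1 (-0.25 ± 0.04) fell. Among all tested genes 42.8% were called higher and 57.2% lower. Klf9 and Errfi1 also passed with the trend removed, at -0.36 ± 0.07 and -0.33 ± 0.04, but Ddit4 (0.15 ± 0.06) and Nfkbia (-0.02 ± 0.05) did not. Of 18 ubiquitin and proteotoxic stress genes 7 were tested, 4 rose and 3 fell, beside the same shares of all tested genes. Both directions depended on the scaling, as 0 were called lower with median-ratio scaling and 0 higher with quantile normalization. The ubiquitin genes Rps27a (0.37 ± 0.05) and Ubb (0.28 ± 0.05) rose and Ubqln4, which delivers ubiquitinated proteins to the proteasome, fell (-0.23 ± 0.06). With the trend removed Rps27a (0.12 ± 0.05) and Ubb (-0.04 ± 0.05) did not pass, and Ubqln4 passed at -0.25 ± 0.06.

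Early genes that digestion of a tissue switches on also moved both ways. Of 28 such genes 11 were tested, 8 rose and 3 fell, where 42.8% of all tested genes were called higher and 57.2% lower. Jund (0.52 ± 0.05), Ier3 (0.41 ± 0.05) and Junb (0.37 ± 0.07) rose and Dusp4 fell (-0.48 ± 0.06). With the trend removed Jund passed at 0.19 ± 0.05 and Dusp4 at -0.66 ± 0.06, and Ier3 (0.05 ± 0.05) and Junb (0.14 ± 0.07) did not. Over all 9 lists, each gene counted once, 57 of 72 tested genes rose (79.2%, against 42.8% of all tested genes) and 15 fell. The lists include Hspa1a, Hspa1b, Hspb1, Hspe1, Mt1 and Mt2, all of which rose. Without them 51 of 66 rose (77.3%) and 15 fell. Among all tested genes the share called higher ran from 97.1% in the shortest length class to 2.54% in the longest. With the trend removed 23.6% of the 72 were called higher, against 15.3% of all tested genes, and 13.9% lower, against 15.9%. Without those genes the shares were 22.7% higher and 15.2% lower.

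**Figure D5:**
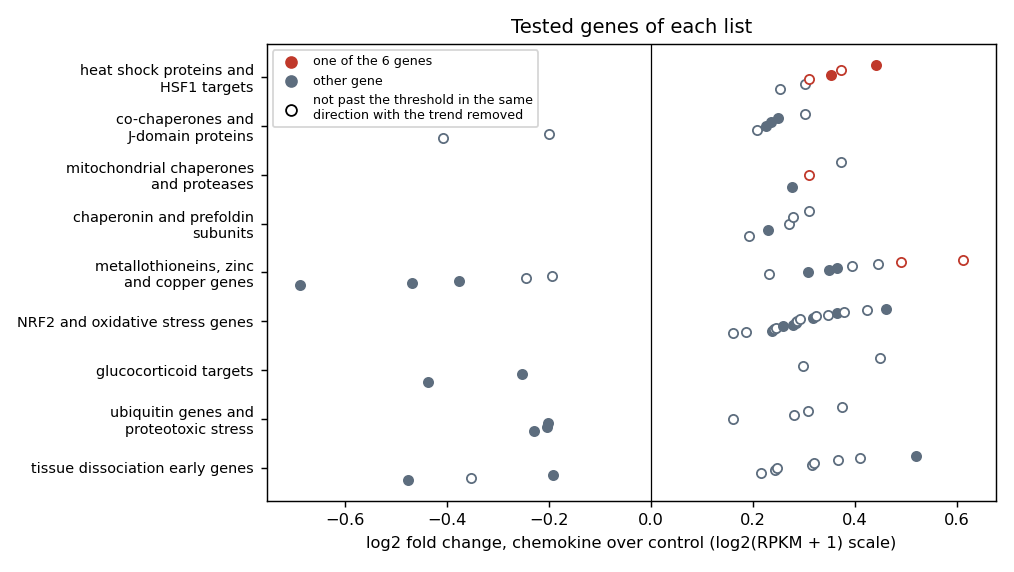
Log2 fold change of chemokine over control (x axis, log2(RPKM + 1) scale) of every tested gene in the 9 lists (rows), with the 6 genes in red and all others in grey. Filled points also passed limma's test in the same direction after removal of the length and GC trend, among them 2 of the 6 genes, Hspa1a and Hspa1b.

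Likeness to the 6 genes over the 4 libraries was measured as the root mean square difference of log2(RPKM + 1) after centring each gene on its mean. The nearest listed genes were Rpl36 and Nrep to Hspa1a, Cxcl2 and Mpv17l2 to Hspa1b, Prrx2 and Rps16 to Hspb1, Lsm6 and Lamtor4 to Hspe1, Ccl7 and 1500011K16Rik to Mt1, and Dhrs13 and Ear2 to Mt2. Dhrs13 was low, at 2.93 and 3.51 RPKM in chemokine libraries and 1.84 and 1.78 RPKM in control libraries. Ear2 had 5.79 and 6.86 RPKM against 3.71 and 3.55 RPKM. This scale understates the change of such low genes, so their likeness to Mt2 depends on it. The distance to the nearest was 0.00399 for Hspa1a, 0.00599 for Hspa1b, 0.00457 for Hspb1, 0.014 for Hspe1, 0.0128 for Mt1 and 0.0267 for Mt2 on the log2 scale. Such patterns were common for most of the genes, with 397 genes within 0.05 of Hspa1b, 363 of Hspb1, 187 of Hspa1a and 151 of Hspe1, but 31 of Mt1 and 4 of Mt2. Within the 6, the closest pairs were Hspa1a with Hspb1 at 0.0456 and Hspa1a with Hspa1b at 0.048, and Mt1 was nearest to Mt2 at 0.063. With 4 libraries this is a description of values and carries no test.

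Markers of other cell types also moved with the groups. Of 12 endothelial markers 3 are in the table, Sox18, Plvap and Pecam1, and all 3 rose, with a summed level of 9.76 and 10.4 RPKM in chemokine libraries, against 5.74 and 6.15 RPKM in control libraries. Of 8 smooth muscle and myofibroblast markers 4 are in the table, of which Tagln, Cnn1 and Acta2 rose and Myh11 fell, and they summed to 5124 and 5226 RPKM in chemokine libraries, against 4461 and 4359 RPKM in control libraries. Of 14 macrophage and monocyte markers Mrc1 is in the table and fell, at 8.36 and 8.28 RPKM in chemokine libraries, against 10.5 and 10.8 RPKM in control libraries. Of 12 epithelial markers 3 are in the table, of which Krt18 and Krt19 rose and Sftpb was too low to be tested, and they summed to 17.6 and 18.5 RPKM in chemokine libraries, against 14.3 and 14.1 RPKM in control libraries. Of 11 neutrophil and eosinophil markers Cxcr2 and Ear2 are in the table, rose and summed to 13.8 and 16.1 RPKM in chemokine libraries, against 9.99 and 9.63 RPKM in control libraries. Krt19, also an epithelial marker, is the listed 1 of 6 mesothelial markers and rose, and of 10 lymphocyte markers 0 are in the table. The part of any of these cell types in the values of the 6 genes was not tested.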

How the data were processed

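The 4 libraries, 2 per group, were sequenced from total RNA. Per the submitters' processing notes, TopHat2 2.0.7, DESeq2 and the build GRCm38/mm10 were used, with no roles. Not given in the sources used here: how genes were selected, the counting tool, its use of strand and the annotation. A deposited table holds RPKM per library, a unit its header does not name. It was worked out from the values: in all 2979 genes each is a whole number of reads over a fixed length and a fixed library total, within a relative error of 3e-14. For 1176 genes the annotated exon length in GENCODE M21 fits, and it is the implied length itself for Hspa1a, Hspa1b, Hspe1 and Gm20481. For Hspb1, Mt1 and Mt2 it does not equal the implied length, so their reads are the smallest whole numbers that the values allow. The authors' deposited fold, a linear ratio, was not used.

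The test was limma 3.58.1 in R 4.3.3 with a trended prior variance, applied to log2(RPKM + 1) of genes averaging 1 RPKM or more, two-sided, with a threshold of 0.05 on the Benjamini-Hochberg adjusted p. All 6 genes passed the filter. Fold changes on this scale understate the change of low genes. The trend of length and GC was a loess surface (span 0.5) on log2 exon length and the GC content of the longest transcript in GENCODE M21, in which 2976 genes were found. Exon overlaps were looked up for the 6 genes only. Intervals cover counting error only, since reads are not independent molecules. Promoters were matched by symbol for all 6 genes.

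The members and lists were chosen with earlier results of these data known. Named genes are the 6 genes, listed genes that share their exon bases, the 2 nearest genes to each, and up to 4 tested genes of each list by size of change; others are said to be named after their values were seen. A gene that this rule names is not reported here.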

Additional observations from a re-analysis of the deposited data

How the results depend on the processing

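Each of the 6 genes was tested under 16 alternatives, and the number that kept the direction and the side of the threshold was 16 for Hspa1a, 15 for Hspa1b, 14 for Mt2, 13 for Mt1, 13 for Hspb1 and 12 for Hspe1. Many alternatives could hardly change a call, so these numbers are no measure of stability. Adding 0.1 or 5 RPKM in place of 1, or a replicate block, called every tested gene, 1264 higher and 1692 lower. Summing the HSP70 copies left the values of the other genes as they were. After removal of the length and GC trend, log2 fold changes were -0.0383 for Hspb1, -0.0061 for Hspe1, 0.14 for Mt1 and 0.19 for Mt2, none past the threshold. Implied lengths then replaced the annotated ones for the 6 genes and Gm20481 alone, a setting chosen after seeing the data. The values were -0.0385 for Hspb1, -0.0060 for Hspe1, 0.0748 for Mt1 and 0.18 for Mt2. The choice of length moved Mt1 most. All other genes kept their annotated lengths, so this setting does not test the calls over the whole table or the lists. Requiring a fold of at least 1.2 (limma's treat) leaves the log2 fold changes as they are and ended the calls of Hspa1b (0.35), Hspb1 (0.37), Hspe1 (0.31) and Mt1 (0.49), and quantile normalization that of Hspe1 (0.0669). The number of the 6 genes called was 2 with the trend removed, by either length, and 2 with treat.

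For the whole table the calls numbered 1264 higher and 1692 lower. They were 452 higher and 471 lower with the trend removed, and 97 and 310 with treat. Calls lower were 807 with median-ratio scaling, 936 with quantile normalization and 691 at a mean of at least 10 RPKM. For the 9 lists together, calls higher were 57, and 17 with the trend removed, 29 with quantile normalization and 4 with treat. Their calls lower were 15, and 9 at a mean of at least 10 RPKM, 6 with median-ratio scaling and 3 with treat. Median-ratio scaling moved the median of all genes by 0.21 and quantile normalization by 0.22 on the log2 scale. Except where a fit tests fewer genes or a larger fold by its own construction, the cause was not tested.

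Leaving out each library in turn gave log2 fold changes of 0.43 to 0.45 for Hspa1a, 0.34 to 0.37 for Hspa1b and 0.33 to 0.42 for Hspb1. For Hspe1 they were 0.24 to 0.38, for Mt1 0.36 to 0.62 and for Mt2 0.49 to 0.73. The lone library of a group is assumed to vary like the other group in these fits, so the size of the change alone is given. The labels give both groups the replicate numbers 1 and 2 without saying that these pair the libraries. With the replicate block all 6 genes passed and the calls over the table stayed at 1264 higher and 1692 lower. The deviations of same-numbered libraries from their group means had a Pearson r of -0.156 across 2956 genes, which are not independent replicates, and a block with crossed numbers, added after seeing the data, gave 1264 and 1692 as well. Each group has 2 libraries, which limits the precision, and the lowest read count of the 6 genes in any library was 1035.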
